A study of Danio rerio with 13 samples.

Results

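The striated muscle actin genes encode the actins of the sarcomere. The rule took every identifier of the count table whose zebrafish symbol, with case ignored, equals actc1a, actc1b, acta1a or acta1b. Of these 4 names, 2 matched an identifier, actc1a (ENSDARG00000042535) and actc1b (ENSDARG00000099197), among 32105 genes in the table. The symbol table carried 2 more identifiers under the single symbol ACTA1, ENSDARG00000055618 and ENSDARG00000036371. The RefSeq annotation of zebrafish lists acta1a and acta1b but pairs neither with an identifier of the count table, so whether the ACTA1 identifiers are acta1a and acta1b, and which is which, was not settled. Both are described by their identifiers beside actc1a and actc1b, and a statement on the set of 4 covers these 4 identifiers. In counts per length ENSDARG00000055618 lay above ENSDARG00000036371 in 13 of 13 libraries, and they are called the more abundant and the less abundant ACTA1 gene here. All 4 identifiers passed the filter on low counts, which kept 19407 genes. The transcript length implied by the deposited tables was 1284 bases for actc1b, 1308 for actc1a, 1542 for the more abundant ACTA1 gene and 1978 for the less abundant one. RefSeq (assembly GRCz12tu) places actc1b between the coding genes arhgap11a and eif2ak4 and actc1a between scg5 and rrm2l, with no gene overlapping either. Coordinates are not given, since that assembly is not the GRCz10 build of the counts.

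In muscle fibres actin monomers polymerise into the thin filament of the sarcomere. The filament carries tropomyosin and the troponin complex, which open it to myosin when calcium rises, and myosin heads pull on it to shorten the fibre. In mammals ACTA1 is the skeletal muscle actin and ACTC1 the cardiac actin, and both proteins are nearly identical. Zebrafish hold several genes of this kind. In zebrafish actc1b is a main actin of skeletal muscle, and embryos that lack it have been described to carry raised levels of its paralog actc1a.

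RNA sequencing was performed on muscle of AB strain males aged 3 months. The groups were AB wild type (n = 5), AB tert+/- with 1 mutant allele of the telomerase gene tert (n = 5) and AB tert-/- with both alleles mutant (n = 3). The tert hu3430 line carries a nonsense mutation in the germline, so the loss is not restricted to muscle. The study used the genotypes as a graded model of telomeric ageing. Strain, sex, age and tissue were shared by all groups, and the labels do not say whether the fish were siblings or whether each sample was 1 fish, so p-values measure the spread between these samples.

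Total counts ranged from 10.59 to 47.49 M per library. The muscle label was checked with fixed markers, and the 17 fast muscle identifiers were counted in all 13 libraries. Transcripts of testis stood out in 3 libraries, namely replicate 5 of wild type and replicate 1 of each mutant genotype. There, 14 of 14 testis markers lay above every other library. Their summed level was 559 to 2741 counts scaled to a library total of 1e6 (CPM) of the library total in these 3 and 5.08 to 47.0 CPM in the other 10. The summed fast muscle markers were at 158515 to 225594 CPM in the 3 and at 229442 to 266316 CPM in the 10. The striated actins, the lists and the genes named from them are therefore given with all 13 libraries and with these 10, unless 13 alone are stated. The TMM normalization factors (trimmed mean of M-values) were 1.07, 2.02 and 2.30 in the 3 libraries, against 0.771 to 0.923 in the others, so a CPM with TMM factors is lower there than a plain CPM. The targeted gene tert was counted at 4.90 to 9.72 CPM with TMM factors in wild type, 5.68 to 7.81 in tert+/- and 2.02 to 5.99 in tert-/-. These ranges overlap, and a nonsense allele can still be transcribed. For tert the log2 fold change in tert-/- against wild type was -0.77 (SE 0.34, edgeR unadjusted p = 0.0408, adjusted p = 0.992). In tert-/- against tert+/- it was -0.79 (SE 0.34, edgeR unadjusted p = 0.0365, adjusted p = 0.9998). With the 10 libraries both were -0.39, with edgeR unadjusted p of 0.203 and 0.205.

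Levels of actc1b were uniform in the libraries without testis transcripts. In plain CPM, actc1b was at 92177, 95903, 103021, 102707 and 66517 in wild type replicates 1 to 5. In tert+/- replicates 1 to 5 it was at 52569, 101177, 102250, 89631 and 104905 CPM. For tert-/- replicates 1 to 3 it was at 73367, 93311 and 107076 CPM. The 3 lowest values belong to the 3 libraries with testis transcripts, and the genotypes overlap. Of these libraries, wild type replicate 5 and tert+/- replicate 1 also had the lowest total counts, 10.59 and 14.92 M. The next lowest total was 27.65 M, in tert+/- replicate 3. With TMM factors the other 10 libraries averaged 116749 ± 11161 CPM (SD, n = 10), a coefficient of variation (CV) of 9.56%, and the highest was 1.37 times the lowest. On the same scale the 3 libraries were at 25975, 31950 and 62186 CPM, below all of the 10. In bulk muscle, fewer fibres and less actin RNA per fibre cannot be told apart, and the part of testis RNA or depth in these lower levels was not tested.

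**Figure D1:**
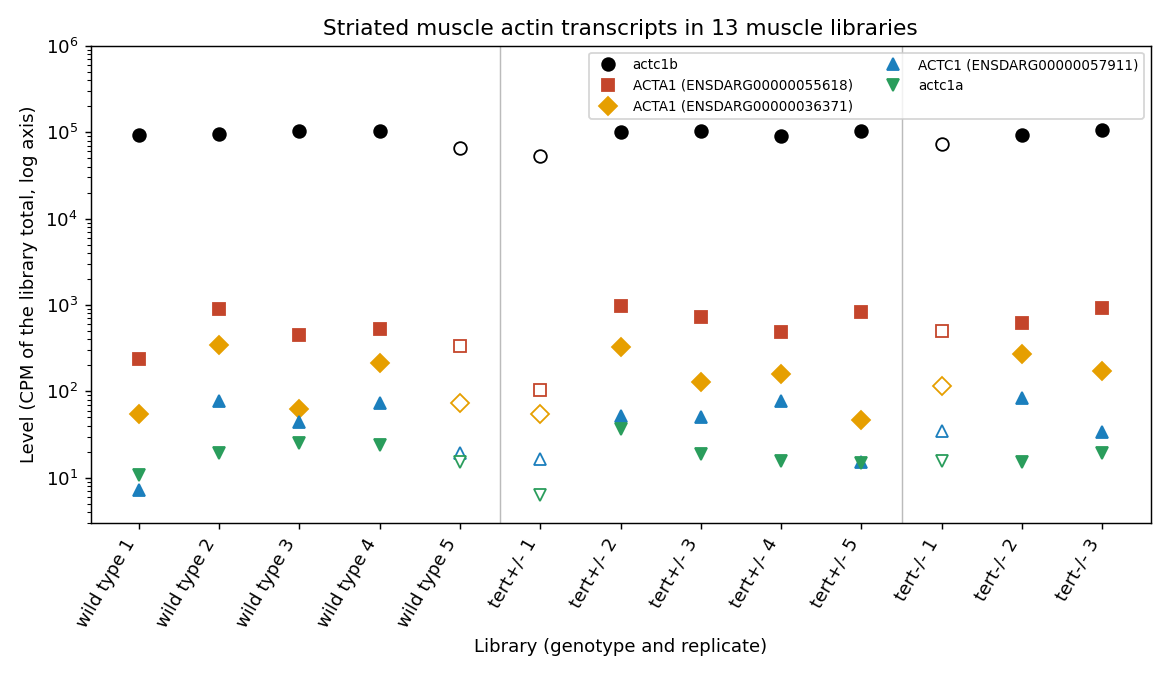
Level of 5 striated actin identifiers in each of the 13 libraries, in CPM of the library total on a log axis, ordered by genotype. Open symbols mark the 3 libraries with testis transcripts. The points of actc1b lie between 52569 and 107076 CPM, and those of every other identifier lie at 968 CPM or below.

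Over 13 libraries, actc1b was the most counted gene in 11 and ranked 2 in wild type replicate 5 and tert+/- replicate 1. Per length it ranked 1 in 13 of 13. The set of 4 identifiers held 9.03% to 10.8% of all counts in the 10 libraries (10.01% ± 0.61, SD, n = 10) and 5.27% to 7.40% in the 3. The widest 95% Wilson interval of such a share spanned 0.0300 percentage points, which covers counting error only. Within the set, actc1b held 98.7% to 99.7% of counts in the 13 libraries, including those with testis transcripts.

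**Figure D2:**
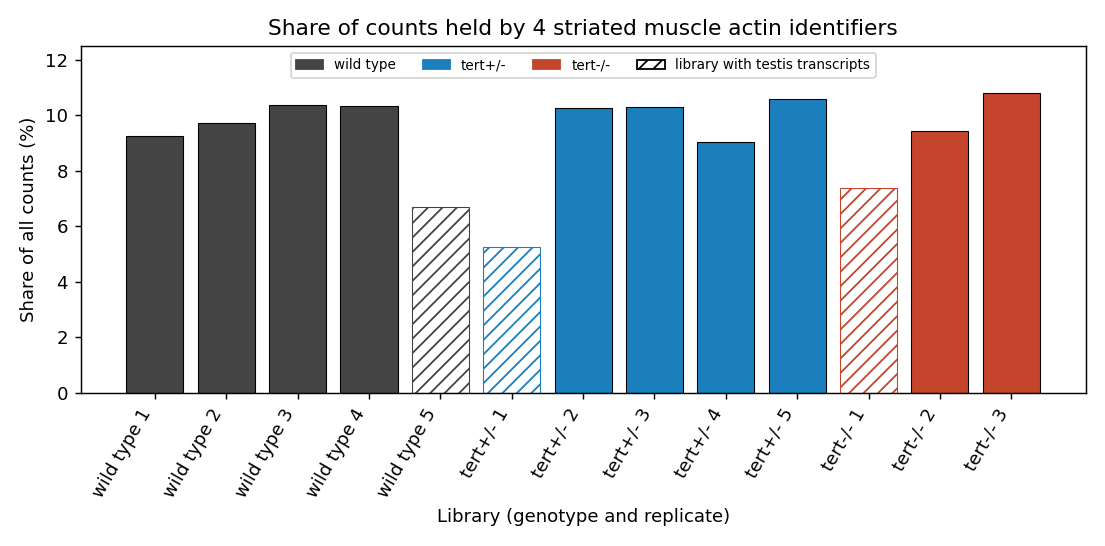
Percent of all counts of a library held by the set of 4 striated actin identifiers, with bars from 0 and 1 bar for each of the 13 libraries, coloured by genotype. The hatched bars are the 3 libraries with testis transcripts and lie between 5.27% and 7.40%, and the solid bars lie between 9.03% and 10.8%.

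The paralog actc1a was counted at a small part of the level of actc1b. With TMM factors actc1a was at 13.6, 21.9, 28.6, 29.6 and 14.3 CPM in wild type replicates 1 to 5. It was at 3.15, 40.2, 22.5, 18.4 and 17.4 CPM in tert+/- replicates 1 to 5, and at 6.73, 16.7 and 25.1 CPM in tert-/- replicates 1 to 3. The lowest and the highest of the 13 libraries were both tert+/-. These levels rest on 95 to 1351 counts, and counting alone gives them an error of 2.72% to 10.3%. Per length, actc1b lay 2780 to 8614 times above actc1a (median 5497). The smallest ratio was in tert+/- replicate 2 and the largest in wild type replicate 1. How reads that match more than 1 actin paralog were handled in the deposited counts is not given. The level of a minor actin beside one as abundant as actc1b is therefore uncertain.

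The more abundant ACTA1 gene was at 298, 1024, 506, 643 and 311 CPM with TMM factors in wild type replicates 1 to 5. It was at 50.9, 1049, 854, 578 and 977 CPM in tert+/- replicates 1 to 5, and at 215, 680 and 1190 CPM in tert-/- replicates 1 to 3. The lowest libraries of both mutant genotypes were those with testis transcripts, and in wild type replicate 1 was lower than replicate 5. Per length, actc1b lay 126 to 613 times above it.

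The less abundant ACTA1 gene was the more variable of the pair on a log scale over the 10 libraries, but not over 13, where the SD of log2 CPM within genotypes was 1.35 for it and 1.38 for the other. It was at 68.5, 393, 72.0, 262 and 69.1 CPM with TMM factors in wild type replicates 1 to 5, and at 27.4, 351, 155, 185 and 54.6 CPM in tert+/- replicates 1 to 5. In tert-/- replicates 1 to 3 it was at 50.8, 299 and 220 CPM. High and low libraries occurred in wild type and in tert+/-, also among those without testis transcripts. In tert-/- the low library was replicate 1, which has testis transcripts and was at 117 in plain CPM. Wild type replicates 1 and 3 were as low as the wild type library with testis transcripts. Per length its ratio to the more abundant ACTA1 gene ran from 0.0436 in tert+/- replicate 5 to 0.419 in tert+/- replicate 1.

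**Figure D3:**
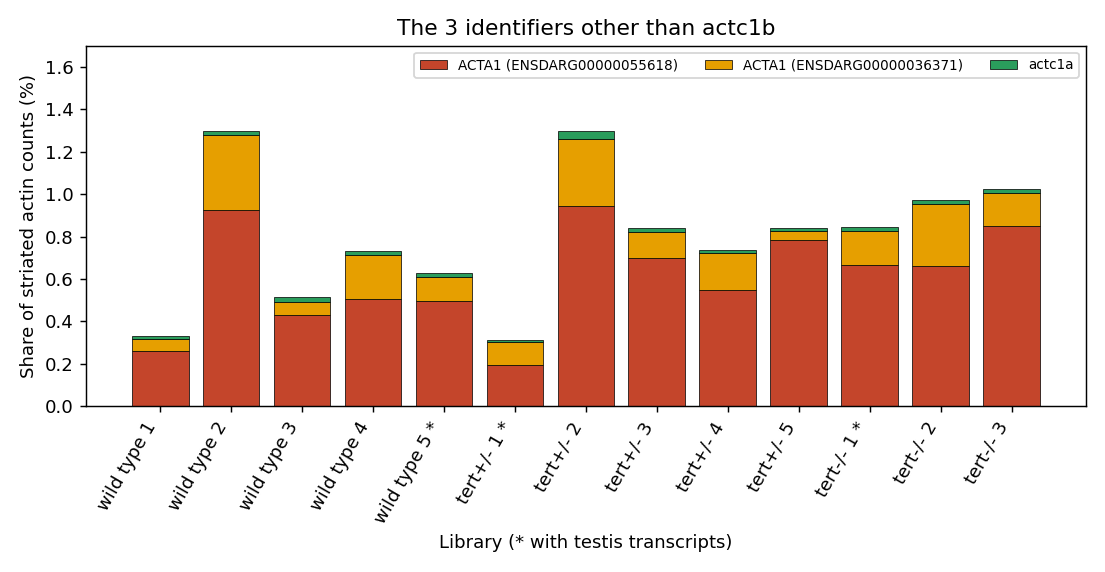
Percent of the counts of the 4-identifier set held by the more abundant ACTA1 gene, the less abundant ACTA1 gene and actc1a, stacked from 0, in each of 13 libraries. A star marks the 3 libraries with testis transcripts, and the remainder of each library, 98.7% to 99.7%, belongs to actc1b.

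A further identifier, ENSDARG00000057911, carries the symbol ACTC1, which is not one of the 4 names. RefSeq gives actc1 as a synonym of acta1b, so this identifier could also be a member. RefSeq also lists actc2, which pairs with no identifier of the count table, so the identifier could be that gene instead. The symbol of the ACTA1 identifiers is ambiguous too, since RefSeq gives acta1 as a synonym of actc1b. The ACTC1 identifier, whose zebrafish name was not settled, is described outside the set. It was at 8.93, 87.4, 49.9, 90.5 and 17.9 CPM with TMM factors in wild type replicates 1 to 5. It was at 8.15, 56.01, 59.8, 89.9 and 17.9 CPM in tert+/- replicates 1 to 5, and at 15.2, 91.6 and 43.9 CPM in tert-/- replicates 1 to 3. The level spanned 10.3-fold within the 10 libraries without testis transcripts. The gene acte1, another actin with the RefSeq synonym actc1c, was added after its values were seen. It spanned 50.2 to 463 CPM in those 10 libraries.

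The order of the actins was set per length, as RPKM recalculated with each library's own total. The median over 13 libraries was 74691 for actc1b, 429 for actb2 and 339 for the more abundant ACTA1 gene. Next came actb1 at 250, acte1 at 81.4 and the less abundant ACTA1 gene at 65.8 RPKM. The lowest were ACTC1 at 27.9, the smooth muscle actin acta2 at 23.3 and actc1a at 11.99 RPKM. Here actb1 and actb2 are the cytoplasmic beta actins of all cells. The range of actc1b did not overlap that of its neighbour in this order, and each other pair of neighbours overlapped. The more abundant ACTA1 gene lay below actb2 in 8 of 13 libraries and above actb1 in 11 of 13. The less abundant ACTA1 gene lay above ACTC1 in 13 of 13, although their ranges overlapped.

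Spread within a genotype differed between the genes. It is given as the SD of log2 CPM with TMM factors around genotype means, over the 10 libraries. For actc1b it was 0.17, at percentile 7.09 of all genes, whose median was 0.41. For actc1a it was 0.54, for the more abundant ACTA1 gene 0.61 and for the less abundant one 1.13. Against the 500 genes nearest in level, these stood at percentile 6.80 for actc1b, 86.8 for actc1a, 87.2 for the more abundant and 98.0 for the less abundant ACTA1 gene. In these libraries actc1b was the most counted gene. The 500 genes nearest to it therefore all lay below it, and its percentile is not one among genes of like level. The SD was 1.27 for ACTC1 and 1.11 for acte1, but 0.15 for actb2 and 0.21 for actb1. With all 13 libraries the SD of actc1b was 0.83, against 0.63 for the median gene.

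No striated actin was called between genotypes. In tert-/- against wild type, edgeR's quasi-likelihood test called 0 of the 4 identifiers at an adjusted p under 0.05, where it called 0% of all 19407 genes. An unadjusted p under 0.05 was reached by 0 of the 4 and by 496 genes (2.56%). The count was 0 of 4 also in tert+/- against wild type and in tert-/- against tert+/-, where 0% of genes were called and 557 (2.87%) and 284 (1.46%) had an unadjusted p under 0.05. DESeq2 called 1 gene (0.0056%) in tert-/- against wild type, 0 in tert+/- against wild type and 1 (0.0056%) in tert-/- against tert+/-, and none of the 4 in any of them. With the 10 libraries edgeR called 0 genes, and 0 of the 4 had an unadjusted p under 0.05 in any comparison, where 3.39%, 8.96% and 2.58% of all genes did in the same order. Limma-voom called 0 genes in each. The 3 comparisons share samples, since each genotype enters 2 of them. The biological CV of the fit was 63.9% with 13 libraries and 37.4% with 10.

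Between tert-/- and wild type, actc1b had a log2 fold change of -0.22 (SE 0.74, edgeR adjusted p = 0.993), from means of 90750 ± 54227 (SD, n = 3) and 105922 ± 25213 (SD, n = 5) CPM. The 95% interval ran from -1.82 to 1.37, or 0.283-fold to 2.59-fold. Without the 3 libraries with testis transcripts the value was 0.08 with an interval of -0.35 to 0.50, so the sign turned and the interval narrowed. The value for actc1a was -0.42 (SE 0.61, edgeR adjusted p = 0.992) with 13 libraries and -0.14, with an interval of -1.04 to 0.77, with 10. A raised level of actc1a in tert-/- was not detected, and a rise of 1.87-fold lay at the upper bound of the interval from 13 libraries. The labels give a mutation of tert and none of actc1b, so the rise described in embryos without actc1b was not tested.

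The more abundant ACTA1 gene had a log2 fold change of 0.32 (SE 0.75, edgeR adjusted p = 0.992) between tert-/- and wild type. With 10 libraries it was 0.63, with an interval of -0.35 to 1.60 and an edgeR adjusted p of 0.9997. The less abundant ACTA1 gene had 0.14 (SE 0.84, edgeR adjusted p = 0.993) with 13 libraries and 0.41 with 10. Its 95% interval from 13 libraries, -1.69 to 1.96, was the widest of the 4 identifiers in this comparison. All 4 ranges overlapped between the genotypes.

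Between tert+/- and wild type the log2 fold change was -0.12 (SE 0.63) for actc1b and -0.09 (SE 0.52) for actc1a, each with an edgeR adjusted p of 0.9999. For actc1b in the 10 libraries it was -0.01 with an interval of -0.35 to 0.34, and for actc1a it was 0.08 with -0.66 to 0.81. It was 0.34 (SE 0.66) for the more abundant ACTA1 gene and -0.16 (SE 0.73) for the less abundant one, and 0.49 and -0.09 in the 10 libraries.

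Between tert-/- and tert+/- the values were -0.10 (SE 0.73) for actc1b and -0.33 (SE 0.61) for actc1a. They were -0.01 (SE 0.76) for the more abundant and 0.30 (SE 0.84) for the less abundant ACTA1 gene, and the edgeR adjusted p was 0.9998 for each of the 4. With 10 libraries actc1b was at 0.09, actc1a at -0.21, and the ACTA1 genes at 0.13 and 0.50 in the same order.

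**Figure D4:**
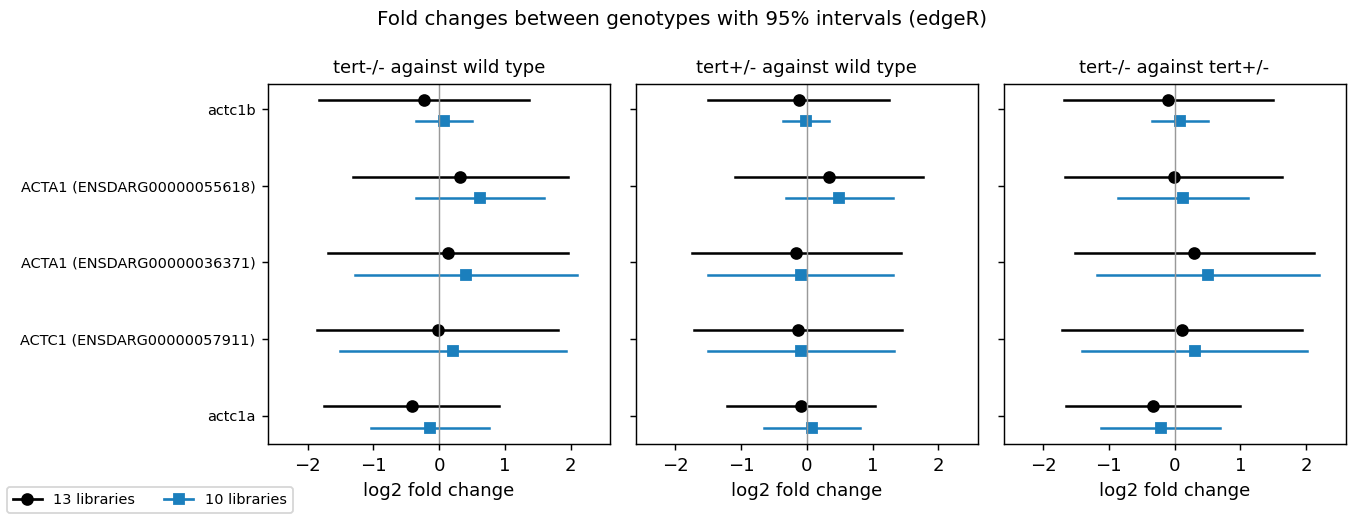
Log2 fold change of 5 striated actin identifiers in the 3 genotype comparisons, with 95% intervals derived from edgeR's quasi-likelihood test as lines. Circles are fits of 13 libraries and squares fits of the 10 without testis transcripts. Every interval includes 0, and those of actc1b are the ones that narrow most from 13 to 10 libraries, to -0.35 to 0.50 in tert-/- against wild type.

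Shares of counts were compared by genotype. The set's share of all counts has the library total as its denominator, whereas a share within the set depends on neither library totals nor TMM factors. The set held 9.27% ± 1.51 (SD, n = 5) of all counts in wild type, 9.09% ± 2.22 (SD, n = 5) in tert+/- and 9.21% ± 1.72 (SD, n = 3) in tert-/-, and the means were 9.92%, 10.04% and 10.12% (n = 4, 4 and 2) without the libraries with testis transcripts. Within the set, the more abundant ACTA1 gene held 0.523% ± 0.246 (SD, n = 5) in wild type, 0.633% ± 0.284 (SD, n = 5) in tert+/- and 0.727% ± 0.106 (SD, n = 3) in tert-/-. The largest difference of that share, 0.203 percentage points between tert-/- and wild type, had p = 0.214 in a two-sided exact permutation test (adjusted p = 0.982 over 15 tests, smallest possible p 0.0179). With the 10 libraries it was 0.226 percentage points (exact permutation p = 0.333, smallest possible p 0.0667), from means of 0.530%, 0.743% and 0.756% in wild type, tert+/- and tert-/-. The share of actc1a was 0.0204% ± 0.00509 (SD, n = 5) in wild type, 0.0196% ± 0.00961 (SD, n = 5) in tert+/- and 0.0184% ± 0.00233 (SD, n = 3) in tert-/-. Against wild type, the two-sided exact permutation p of the actc1a share was 0.913 for tert+/- and 0.571 for tert-/-. With 10 libraries the means were 0.0198%, 0.0215% and 0.0171%. The share of the less abundant ACTA1 gene was 0.158% ± 0.125 (SD, n = 5) in wild type, 0.153% ± 0.102 (SD, n = 5) in tert+/- and 0.202% ± 0.0774 (SD, n = 3) in tert-/-. Its exact permutation p against wild type was 0.937 for tert+/- and 0.643 for tert-/-, or 0.943 and 0.667 with 10 libraries, and the genotypes overlapped in every share.

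The actins outside the set were described in the same fit, and 0 of them were called. In tert-/- against wild type the log2 fold change was -0.02 (SE 0.84) for ACTC1, 0.45 (SE 0.45) for acta2, -0.02 (SE 0.34) for actb1, -0.10 (SE 0.36) for actb2 and 0.59 (SE 0.87) for acte1. With 10 libraries the values were 0.21, -0.28, 0.15, 0.04 and 0.96 in the same order, so 4 of the 5 turned in sign and that of acte1 grew. The level of acta2 was 128 CPM with TMM factors in tert-/- replicate 1, the library of highest testis level, and at 23.4 to 93.8 CPM in the 10. In tert+/- against wild type actb1 had 0.39 (SE 0.29, edgeR adjusted p = 0.9999), from means of 657 ± 103 (SD, n = 5) and 502 ± 158 (SD, n = 5) CPM, and 0.33 with 10 libraries.

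Levels of the striated actins moved together to an extent that depended on the libraries used. Correlations are of log2 CPM with TMM factors, and they are descriptions over libraries that share testis content and depth. Over 13 libraries actc1b had Pearson's r of 0.89 with actc1a, 0.87 with the more abundant and 0.65 with the less abundant ACTA1 gene. Over the 10 libraries these were 0.23, 0.28 and -0.27. The less abundant ACTA1 gene had an r of 0.77 with ACTC1 and 0.72 with acte1 over the 10, and ACTC1 had 0.78 with acte1. Replicate 2 of tert-/- and wild type replicate 2 were high in all 3 genes, and wild type replicate 1 and tert+/- replicate 5 were low in all 3. The cytoplasmic pair actb1 and actb2 had 0.90 over the 10 libraries and each had a negative r with each of the 4 striated identifiers.

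**Figure D5:**
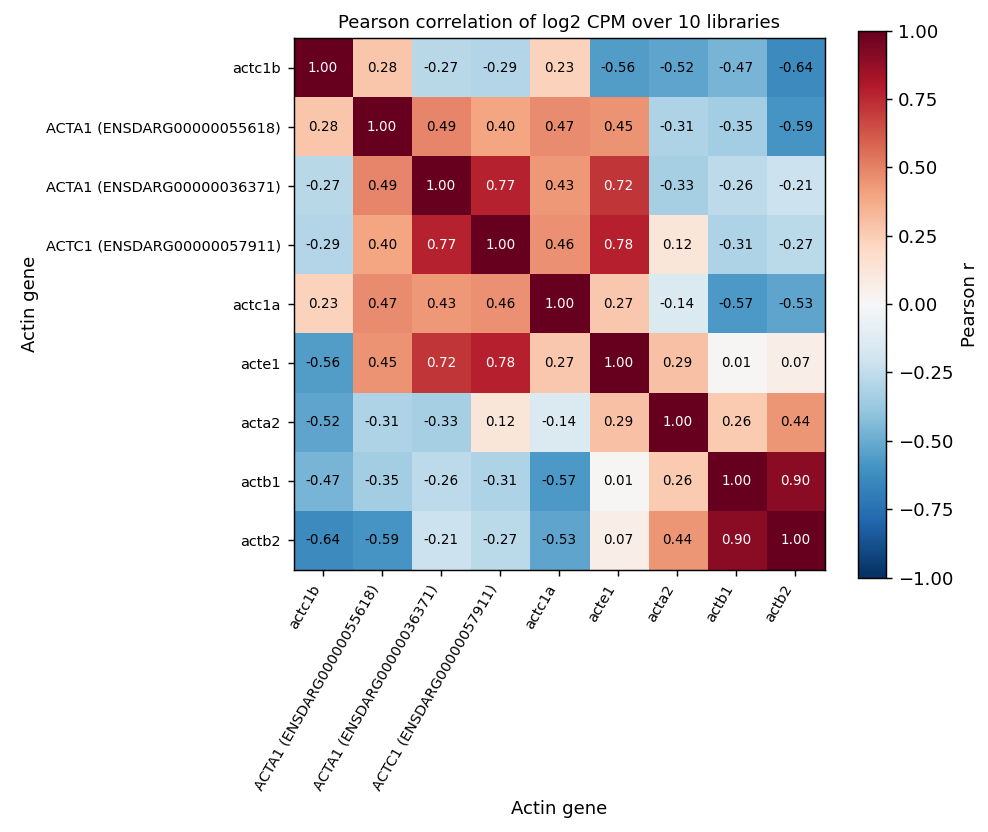
Pearson correlation of log2 CPM with TMM factors between 9 actin genes over the 10 libraries without testis transcripts, coloured from -1 to 1. The less abundant ACTA1 gene, ACTC1 and acte1 form a block of 0.72 to 0.78, and actb1 with actb2 reach 0.90, while actc1b has 0.28 or less with every other actin.

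Slow fibre markers had positive correlations with the same minor actins. Over the 10 libraries the less abundant ACTA1 gene had a positive r with 9 of 9 slow muscle markers (median 0.64, range 0.30 to 0.79). Of these 9, 2 are RYR1 identifiers that the fast list also holds, and without them the count was 7 of 7 (median 0.69). ACTC1 had a positive r with 9 of 9 (median 0.65) and acte1 with 8 of 9 (median 0.70). A mostly positive sign was not particular to these genes. The r was positive with 8 of 9 for actc1a (median 0.24) and with 7 of 9 for the more abundant ACTA1 gene (median 0.25). The slow myosin heavy chain gene smyhc1 had the highest r of that list with the less abundant ACTA1 gene, 0.79, and with ACTC1, 0.92. Fast markers were mixed, with a positive r for 10 of 17 with the less abundant ACTA1 gene (median 0.30). This was 10 of 17 with ACTC1 (median 0.11) and 8 of 17 with acte1 (median -0.10). The highest fast r was 0.70 (atp2a1), 0.91 (ckmb) and 0.67 (atp2a1) in the same order. A MYL1 identifier was the lowest with each, at -0.54, -0.75 and -0.82. For actc1b the r was positive with 1 of 9 slow markers (median -0.54) and with 0 of the 7 not shared with the fast list. It was positive with 10 of 17 fast markers (median 0.32), and the median r with all tested genes was -0.05. Of the 8 cardiac markers tested, 6 had a positive r with the less abundant ACTA1 gene (median 0.39), 7 with ACTC1 (median 0.51) and 6 with acte1 (median 0.42). All 14 matched cardiac identifiers summed to 7.28 to 23.4 CPM in the 10 libraries, and all 10 matched slow identifiers to 574 to 1593 CPM. The slow sum includes the 2 RYR1 identifiers shared with the fast list, at 308 to 557 and 12.7 to 47.6 CPM in these libraries. Testis markers lay on the opposite side over the same 10 libraries. There 0 of 14 had a positive r with the less abundant ACTA1 gene (median -0.66), ACTC1 (median -0.50) or acte1 (median -0.42). This was not particular to these genes, since 0 of 14 were positive with actc1a too (median -0.62). With the more abundant ACTA1 gene 1 of 14 was positive (median -0.36), and with actc1b 2 of 14 were (median -0.10). The summed level of the testis markers in these 10 libraries was 5.08 to 47.0 CPM. Medians of single testis markers there ran from 0 CPM for TDRD1 to 3.90 CPM for gsdf, and whether the 14 vary independently was not tested. The share of slow fibres is not given by the labels, and the part of fibre type or testis RNA in these levels was not tested. Of the blood markers, which number 4 tested, 4 had a negative r with actc1b (-0.88 to -0.69). The summed level of all 5 matched blood identifiers was 101 to 249 CPM in the 10 libraries.

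Genes most like each actin were taken among 4413 genes with a symbol and a mean of at least 10 CPM. They were picked as the highest of these correlations over 13 or 10 libraries, and how high an r arises by chance was not tested. For actc1b they were the glycolytic enzyme gene ENO1, the Z-disc gene MYOZ1 and the alpha-actinin gene actn3a over 13 libraries (r of 0.99 each). Over 10 libraries they were ENO1 (0.95), the fast troponin C gene TNNC2 (0.93) and the tropomyosin gene tpma (0.92). In those 10 libraries ENO1 ran from 737 to 1059 CPM and TNNC2 from 12591 to 17973 CPM with TMM factors.

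The genes most like actc1a were SSPN, cand2 and RRM2B over 13 libraries (0.96, 0.95 and 0.95), of which SSPN encodes a member of the dystrophin complex. Over 10 they were EPS15L1, LRP1 and ATG13 (0.89, 0.89 and 0.88), so none of the 3 was shared between the library sets. For the less abundant ACTA1 gene they were the lipoprotein receptor gene VLDLR (0.91), the fatty acid oxidation gene ACAA2 (0.89) and ACTC1 (0.87) over 13 libraries, and VLDLR (0.89), thbs2b (0.83) and RHBDF1 (0.82) over 10. For the more abundant ACTA1 gene sh3bgr came first in both sets (0.97 and 0.89). It was followed by afg3l1 and the aspartate aminotransferase gene GOT1 over 13, and by tomm40l and COPG2 over 10.

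Partners of actin in the thin filament and regulators of the actin genes were read from fixed lists, and the edgeR test called 0 genes of any of them in any comparison. The thin filament partners, which are troponins, tropomyosins, nebulin and NRAP, had 27 tested genes. Their median log2 fold change was -0.27 in tert-/- against wild type, -0.28 in tert+/- against wild type and 0.11 in tert-/- against tert+/-. The medians of all genes were -0.03, 0.00 and 0.00. Without the libraries with testis transcripts the list was at 0.12, -0.09 and 0.33. At an unadjusted p under 0.05, 1 of the 27 was lower in tert+/- than in wild type, where 1.71% of all genes were. That gene was TNNI2 (ENSDARG00000005841), a fast troponin I, at 5.32 ± 2.51 (SD, n = 5) against 18.1 ± 13.0 (SD, n = 5) CPM. Its log2 fold change was -1.76 (SE 0.66, edgeR adjusted p = 0.9999). It was -1.22 (SE 0.78) in tert-/- against wild type, and with 10 libraries the values were -1.76 and -1.21. Its median was 6.36 plain CPM in the 10 libraries. The other TNNI2 identifiers of the list had medians of 7784, 4188, 744, 5.10 and 1.12 plain CPM there. None of these others had an unadjusted p under 0.05 in tert+/- against wild type with 13 libraries.

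Other partners were named by smallest p and none was called. The tropomyosin gene tpm1 had -0.84 (SE 0.64) in tert-/- and -0.95 (SE 0.55) in tert+/- against wild type, and -0.92 and -0.98 with 10 libraries. Between tert-/- and tert+/- the tropomyosin gene tpm4a had -0.58 (SE 0.34), and tnnt2c, a troponin T at under 1 CPM, had -1.65 (SE 1.13). With 10 libraries these were -0.32 and -1.16.

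Assembly, capping and folding factors, which build and hold the filament, had 39 tested genes. Their medians were -0.22, 0.04 and -0.20 in the comparisons in the same order, and 0.04, 0.17 and -0.05 with 10 libraries. The one gene with an unadjusted p under 0.05, lower in tert-/- where 1.36% and 0.809% of all genes were, was the Xin gene xirp1 (ENSDARG00000092427). It was at 0.155 ± 0.105 (SD, n = 3) CPM in tert-/- against 0.370 ± 0.152 (SD, n = 5) in wild type and 0.394 ± 0.133 (SD, n = 5) in tert+/-. Its log2 fold changes were -1.27 (SE 0.56, edgeR adjusted p = 0.992) and -1.33 (SE 0.56, edgeR adjusted p = 0.9998), with unadjusted p of 0.0416 and 0.0340. With 10 libraries they were -1.04 and -1.07, with unadjusted p of 0.0945 and 0.0883. The median of this identifier was 0.358 plain CPM in the 10 libraries, a level near the floor. A second xirp1 identifier, ENSDARG00000030722, had a median of 53.7 plain CPM there. With 13 libraries it had no unadjusted p under 0.05 in any comparison. The alpha-actinin gene actn2b had -1.17 (SE 0.54) in tert-/- and -0.79 (SE 0.45) in tert+/- against wild type, and -1.28 and -0.94 with 10 libraries. XIRP2 (ENSDARG00000091090), a Xin relative, had -1.29 (SE 0.61) in tert+/- against wild type, which was -0.40 with 10 libraries. The cofilin gene cfl1l had -1.43 (SE 0.79) in tert-/- against tert+/-, and -1.62 with 10 libraries.

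Transcriptional regulators of striated actin genes, such as SRF with its MRTF cofactors, MEF2, TEAD and the myogenic factors, had 30 tested genes. Their medians were -0.35, -0.20 and 0.04, and -0.08, -0.15 and 0.14 with 10 libraries. A negative value was held by 27 of 30 in tert-/- against wild type, 25 of 30 in tert+/- against wild type and 13 of 30 in tert-/- against tert+/-, beside 52.3%, 49.8% and 49.7% of all genes. In tert+/- against wild type, 5 of 30 were lower at an unadjusted p under 0.05, where 1.71% of all genes were, and 3 of 30 were lower with 10 libraries, where 8.96% of all genes had such a p in either direction. Of these, TEAD3 (ENSDARG00000063649) was at 2.504 ± 0.514 (SD, n = 5) against 4.02 ± 0.72 (SD, n = 5) CPM, a log2 fold change of -0.68 (SE 0.23, edgeR adjusted p = 0.9999). The second TEAD3 identifier, ENSDARG00000074321, had -0.97 (SE 0.34, edgeR adjusted p = 0.9999). With 10 libraries these were -0.64 and -0.79. Between tert-/- and wild type the first had -0.49 (SE 0.26), and -0.43 with 10 libraries. In tert-/- the cofactor gene mrtfbb had -1.15 (SE 0.45) against wild type and -1.07 (SE 0.45) against tert+/-, and mef2ab had 1.17 (SE 0.60) against tert+/-. With 10 libraries these were -0.86, -0.89 and 1.16. Among the fast muscle markers, 0 of 17 were called. Their median was -0.29 in tert-/- against wild type, -0.23 in tert+/- against wild type and -0.13 in tert-/- against tert+/-, with 17, 16 and 13 of 17 negative. With 10 libraries it was 0.00, -0.06 and 0.04. Negative values were held by 29, 15 and 34 of 39 assembly factors in the same order of comparisons. Among the thin filament partners 19, 18 and 9 of 27 were negative. Signs were counted with 13 libraries only.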

How the data were processed

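RNA was extracted from muscle of 13 male zebrafish samples and made into TruSeq RNA libraries. The deposited counts are whole numbers of reads per gene. Per the submitters' processing notes, the authors used bcl2fastq 1.8.4, STAR 2.4.1d, the GRCz10 genome and featureCounts 1.4.6-p4. Neither the annotation release nor the handling of strand and of multiply matching reads is given in the sources used here. Whether reads of similar actins or of antisense genes were counted for the right gene is therefore not known. From those counts the authors also deposited RPKM values. Over 2227 genes these matched a cyclic use of the 13 library totals down the genes (highest CV of the implied length 0.0563%), so that 7.69% of values carried the total of their own sample. They served in 1 alternative and for gene lengths, from which RPKM was recalculated with own totals.

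The counts were tested with edgeR 4.0.16 (R 4.3.3, glmQLFit and glmQLFTest, TMM factors, filterByExpr by genotype) in 1 fit of all 13 samples, with Benjamini-Hochberg adjustment over 19407 genes. Adjusted p under 0.05 was a call. The SE of an edgeR log2 fold change was derived as its absolute value over the square root of the F statistic. Intervals of log2 fold changes are at 95% and were built from that SE with the t distribution. Shares were compared with two-sided exact permutation tests, adjusted over 15. Alternatives were DESeq2 1.42.0, limma 3.58.1 (voom, and RPKM with a pseudocount of 0.5, 0.1 or 1), other factors and filters, other denominators, fewer samples and other sets of actins. The changes to the set of actins were chosen after seeing the data. Of the 32105 genes, 26269 had a symbol and 5049 had no count.

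The members and the lists were chosen with earlier results of these data known, including the 3 libraries with testis transcripts. Named genes were the actins, tert, for each list the 2 genes of smallest p in each comparison, and for each striated actin the 3 genes of highest correlation over 13 and over 10 libraries. The lists held 29 matched identifiers of thin filament partners, 40 of assembly factors and 30 of regulators. Sequences are not printed, since no sequence table of the build was used here, and RefSeq (assembly GRCz12tu) served for names only.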

Additional observations from a re-analysis of the deposited data

Results flagged for a closer look

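Within wild type and tert+/-, each of 5 samples, 26 tests of a single far sample were made over the 4 identifiers, and 3 passed Dixon's 95% critical value of 0.71. Chance passes about 1 in 20.

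The level of actc1b with TMM factors was 62186 CPM in wild type replicate 5, against 109127 to 126245 CPM in the other 4 (ratio of gap to range 0.733). It was 25975 CPM in tert+/- replicate 1, against 105188 to 123449 CPM in the other 4 (0.813). Both are libraries with testis transcripts, and they also have the lowest total counts of the series, 10.59 and 14.92 M. In plain CPM, without TMM factors, the ratios were 0.703 and 0.708, just under the critical value.

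In tert+/- replicate 2, actc1a held 0.0362% of the striated actin counts, against 0.0121% to 0.0184% in the other 4 samples (0.738). That library had no raised testis markers and held 1351 counts of actc1a, the highest count of the 13 libraries.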

How the results depend on the processing

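The 30 values comprised 12 log2 fold changes, 15 shares and 3 numbers of identifiers called. They gave 669 alternative values, of which 590 kept their direction and their side of the threshold. The 590 include the numbers of identifiers called, which were 0 throughout and have no direction. A further 79 turned their sign, 45 of them on leaving out 1 sample. No alternative called any of the 4 identifiers, and the smallest adjusted p was 0.566 for a log2 fold change and 0.429 for a share. No paired analysis was possible because the labels give no replicate numbers that groups share. The depth, 10.59 to 47.49 M counts, is thinnest for actc1a, which rests on as few as 95 counts in tert+/- replicate 1. With library totals alone the median log2 fold change of all genes moved to 0.49, 0.29 and 0.25 in tert-/- against wild type, tert+/- against wild type and tert-/- against tert+/-. The cause of the turns was not tested.

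Without the 3 libraries with testis transcripts, the log2 fold change of actc1b turned to 0.0773 in tert-/- against wild type and 0.0861 in tert-/- against tert+/-. That of actc1a turned to 0.0769 in tert+/- against wild type and that of the more abundant ACTA1 gene to 0.13 in tert-/- against tert+/-. The set's share of counts turned to 0.204 percentage points in tert-/- and 0.126 in tert+/- against wild type, and the actc1a share to 0.00169 in tert+/- against wild type.

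Between tert-/- and tert+/-, the log2 fold change of the more abundant ACTA1 gene also turned, to 0.0422 with the 2 genotypes alone, 0.0223 with DESeq2 and with its size factors in edgeR, 0.0342 with a minimum of 10 counts per sample, 0.13 with library totals alone, 0.00465 with upper quartile factors and 0.17 with limma-voom. With RPKM recalculated it was 0.412, 0.411 and 0.409 at a pseudocount of 0.1, 0.5 and 1, and 0.45 with the deposited RPKM. There actc1b turned to 0.0182 with library totals alone, 0.00257 with limma-voom, and 0.0442 with each of the 3 pseudocounts on recalculated RPKM. There actc1a turned to 0.0938 with deposited RPKM and to 0.0566, 0.0476 and 0.0380 with recalculated RPKM at a pseudocount of 0.1, 0.5 and 1. With deposited RPKM actc1b turned to 0.57 in tert-/- and 0.80 in tert+/- against wild type. Of the deposited RPKM values, 7.69% carried the total of their own sample, which limits each turn given with them. The set's share turned to 0.203 percentage points in tert-/- against wild type per length. Against tert+/- it turned to -0.637 with TMM factors in the denominator and -0.454 without the 100 most counted genes. As a log2 ratio to the other members, the difference was 0.0128 for actc1a in tert-/- against tert+/- and 0.0267 for the less abundant ACTA1 gene in tert+/- against wild type.

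Leaving out 1 sample, the log2 fold change in tert-/- against wild type ran from -0.67 to 0.22 for actc1b, -0.32 to 0.78 for the more abundant ACTA1 gene and -0.36 to 0.69 for the less abundant one. For tert+/- against wild type the ranges were -0.26 to 0.11 for actc1b, -0.49 to 0.18 for actc1a and -0.71 to 0.39 for the less abundant ACTA1 gene. For tert-/- against tert+/- they were -0.55 to 0.34 for actc1b, -0.803 to 0.0751 for actc1a, -0.65 to 0.45 for the more abundant and -0.195 to 0.849 for the less abundant ACTA1 gene. The set's share ran from -0.861 to 0.848 percentage points in tert-/- against wild type, -0.828 to 0.771 in tert+/- against wild type and -0.8295 to 1.03 in tert-/- against tert+/-. Within the set, the share of actc1b ran from -0.254 to 0.0184 and that of actc1a from -0.00495 to 0.00107 in tert+/- against wild type, and that of actc1a from -0.00311 to 0.00292 in tert-/- against tert+/-. The share of the less abundant ACTA1 gene ran from -0.000937 to 0.0929 in tert-/- and -0.0458 to 0.0440 in tert+/- against wild type. That of the more abundant one ran from -0.0164 to 0.171 in tert-/- against tert+/-.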
